A study of Mus musculus with 30 samples.

Results

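The mitochondrial ribosomal protein genes (Mrpl and Mrps genes) were followed in mouse ovaries together with Mpv17l2, the gene of an inner-membrane protein needed for the assembly of the mitochondrial ribosome. Members were the protein-coding genes named Mrpl or Mrps with a number, plus Mpv17l2, and were selected on a measured value, a mean of at least 5 normalized counts over the 30 libraries. The rule gave 77 genes, 76 Mrp genes and Mpv17l2, of 50600 in the table and of 14646 that reached that mean. Mpv17l2 was added because of its low values in DSS-treated mice, so its difference between treated and control mice is given as a description with no test. Of 79 genes that matched by name, 2 were left out by the level. Mrps28 had a mean of 4.99 and Mrpl53 was listed at 0 in all 30 libraries, while the lowest members were Mrps31 at 36.2, Mrps18a at 36.3 and Mrpl27 at 38.7 normalized counts.

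Mitochondria carry a ribosome of their own, which translates the few membrane subunits of the respiratory chain and the ATP synthase that the mitochondrial genome encodes. Its RNAs are made inside the organelle, but all of its proteins are encoded in the nucleus, made in the cytosol and imported. Part of them descend from bacterial ribosomal proteins, and part were added to the mitochondrial ribosome later. Ovarian cells that make steroids and oocytes are rich in mitochondria.

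The 77 genes held 50 proteins of the large subunit, 25 of the small subunit, Mrps36 and Mpv17l2. Mrps18a and Mrps30 were counted with the large subunit, where their proteins sit in spite of their names. Mrps36, first described as a ribosomal protein, is known as a part of the 2-oxoglutarate dehydrogenase complex and was kept apart. Of the 75 subunit proteins, 45 have a bacterial counterpart at the same place and 30 are specific to mitochondria.

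The RNA came from both ovaries of 15 female C57BL/6 mice, which makes 30 libraries. Of these mice, 7 had received 3% dextran sulfate sodium (DSS), a polysaccharide that injures the colon lining, for 7 days in the drinking water while sexually immature. The other 8 were untreated littermates, and ovaries of both groups were taken after sexual maturity. No age or genetic change is given in the labels, and the mice are named here by group and label number. Libraries were made by CEL-Seq, which tags the 3′ end of polyadenylated transcripts, so that a normalized count counts tags per transcript regardless of its length. In whole organs, fewer cells of a type and less RNA per cell cannot be told apart.

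Recovered reads numbered 3095386 to 8564770 per library, with a median of 4305814. The labelled tissue was checked by markers, and each library held at least 5022 normalized counts of the granulosa gene Inha and 50.1 of the oocyte gene Zp3. The oviduct gene Ovgp1 exceeded 5000 normalized counts in 7 ovaries of 6 mice, 4 ovaries of DSS mice and 3 of control mice, and reached 66716 in the left ovary of DSS_11.2. That library had the lowest level of 24 of the 77 members among all 30 libraries. Summed markers of stratified epithelium, a tissue that lies outside the ovary, ranged from 37.6 to 6424 normalized counts and were higher in the left ovary of 15 of 15 mice. Left ovaries carry the odd and right ovaries the even library numbers throughout the labels, so side and library order cannot be told apart.

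The promoters of 4 members are printed because Mpv17l2 is the member with the largest difference between treatments, Mrps18b and Mrps36 had the smallest p of the small subunit and of all members between sides, and Mrpl43 holds more than 1 match to a motif of this gene class. The sequences are RefSeq's for build GRCm38.p6, from 250 bases before to 50 after the transcript start, written 5′ to 3′ on the strand of the gene. Capitals mark CCGGAAG (the core bound by ETS factors, among them GABP), TGCGCA (the inner part of the site of nuclear respiratory factor NRF1) and AAGATGG (the core of YY1), on either strand. Matches do not overlap each other in the 4 sequences. The windows lie on the minus strand at chr8:70760872-70761171 (Mpv17l2), chr17:35916391-35916690 (Mrps18b), chr13:100744610-100744909 (Mrps36) and chr19:45006393-45006692 (Mrpl43).
Mpv17l2: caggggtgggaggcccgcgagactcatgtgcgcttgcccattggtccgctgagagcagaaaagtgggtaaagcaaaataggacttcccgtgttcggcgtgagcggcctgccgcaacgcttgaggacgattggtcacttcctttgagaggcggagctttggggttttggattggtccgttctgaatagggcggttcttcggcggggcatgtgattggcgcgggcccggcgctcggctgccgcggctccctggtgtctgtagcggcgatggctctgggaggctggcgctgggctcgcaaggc
Mrps18b: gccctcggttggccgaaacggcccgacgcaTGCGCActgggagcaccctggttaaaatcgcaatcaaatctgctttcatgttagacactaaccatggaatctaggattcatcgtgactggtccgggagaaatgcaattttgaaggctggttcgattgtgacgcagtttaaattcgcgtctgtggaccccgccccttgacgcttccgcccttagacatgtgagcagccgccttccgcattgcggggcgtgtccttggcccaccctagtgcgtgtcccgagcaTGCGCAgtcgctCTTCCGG
Mrps36: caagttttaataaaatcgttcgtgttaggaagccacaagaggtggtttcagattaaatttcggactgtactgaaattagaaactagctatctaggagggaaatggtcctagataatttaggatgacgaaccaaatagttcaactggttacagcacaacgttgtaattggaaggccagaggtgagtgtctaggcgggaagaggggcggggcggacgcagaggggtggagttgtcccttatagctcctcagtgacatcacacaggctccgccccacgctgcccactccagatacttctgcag
Mrpl43: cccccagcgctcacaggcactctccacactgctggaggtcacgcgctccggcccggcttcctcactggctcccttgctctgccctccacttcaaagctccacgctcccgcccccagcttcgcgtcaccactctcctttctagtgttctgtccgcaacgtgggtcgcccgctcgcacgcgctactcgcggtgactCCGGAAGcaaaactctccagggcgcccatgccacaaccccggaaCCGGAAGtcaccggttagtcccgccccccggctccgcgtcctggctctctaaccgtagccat

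Mrps18b held TGCGCA and the ETS core close to its start, Mrpl43 held the ETS core, and Mpv17l2 and Mrps36 held none of the 3 strings in this window. RefSeq promoters were found for 69 of the 77 members, 75 promoters in all. The ETS core was in 25 of the 75 (33.3%), beside 8.86% of all 32851 promoters of the same length. TGCGCA was in 22 (29.3%), beside 7.76% of all promoters, and AAGATGG in 13 (17.3%), beside 6.34%. With 1 promoter per gene, the one nearest the deposited start, 15 of the 69 genes held at least 2 of the strings and 27 held none. No limit was set on the distance, which was 17016 bases for Mrpl33, 7979 for Mrps24 (among the 15) and 3185 for Mrpl35. These are matches of letters in a window, and no binding was measured.

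All 77 members were detected in every library, over a 35.5-fold range of mean level. The median member had a mean of 174 normalized counts, 8 members exceeded 500 and 21 lay under 100. Mrpl34, a small protein of the large subunit, was highest with a mean of 1284 normalized counts and a range of 838 to 1534 over the 30 libraries. It was followed by Mrpl58, a peptidyl-tRNA hydrolase built into the large subunit, at 930, and by Mrpl33 at 660, Mrps36 at 650 and Mrps21 at 643. The last 3 of these overlapped in their ranges over libraries (533 to 779, 468 to 827 and 469 to 762). The 5 highest members gave 22.4% of the summed level of all 77.

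At the other end stood Mrps31 with a mean of 36.2 normalized counts, the large-subunit protein Mrps18a with 36.3, Mrpl27 with 38.7, Mrpl4 with 38.7 and Mrpl46 with 40.4. Neighbours at this end of the order did not differ beyond their spread over libraries. Mpv17l2 was the 70th of the 77 with a mean of 50.3 normalized counts. Mrps30 had a mean of 118 and Mrpl12, a protein of the stalk that has also been linked to the mitochondrial RNA polymerase, a mean of 95.2. Median levels of large-subunit genes (171) and small-subunit genes (175) were close. The plot of levels shows that both subunits spread over the whole range.

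**Figure D1:**
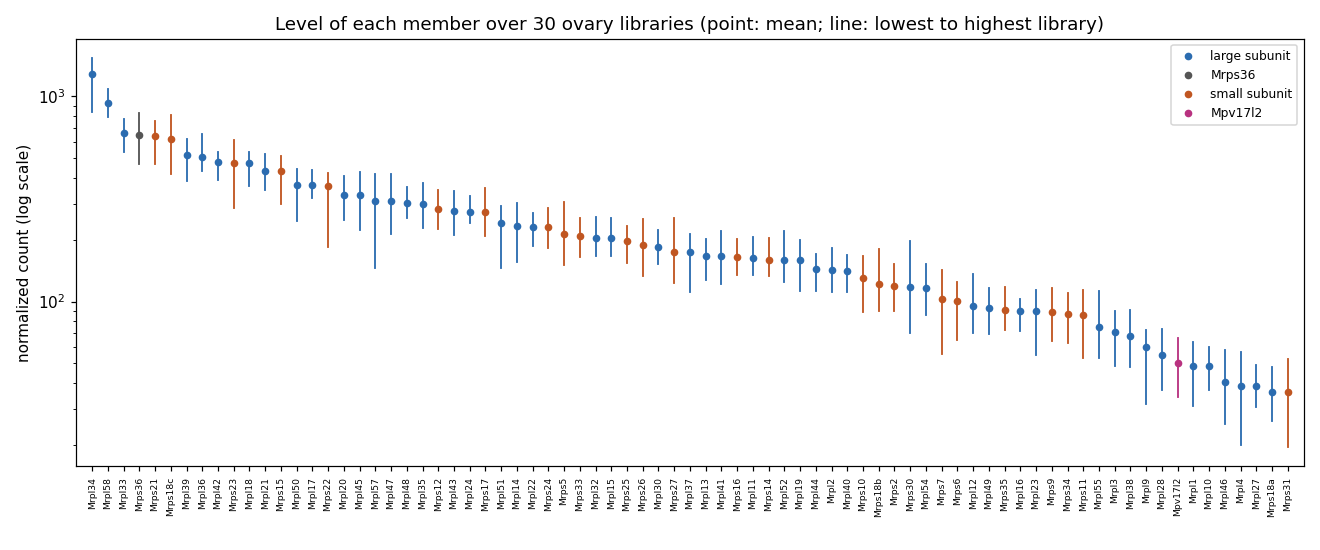
Normalized count (log axis) of each of the 77 members, ordered by mean, with the mean as a point and the lowest to highest of 30 ovary libraries as a line, coloured by subunit. Mrpl34 stands highest with a mean of 1284 and Mrps31 lowest with 36.2, and large-subunit and small-subunit genes are mixed throughout.

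The 77 members together made up 15058 to 20092 normalized counts per library, or 0.353% to 0.462% of the library. Per mouse the sum was 18490 ± 900 (SD, n = 7) in DSS mice and 18787 ± 696 (SD, n = 8) in control mice, and the groups overlapped. The lowest library was the left ovary of DSS_11.2, the one with the highest Ovgp1. Between mice of a group, a member varied with a median coefficient of variation of 8.93%, from 4.20% to 18.5%. The variance between mice was 2.68 times what counting reads gives, as a median over members, close to 2.66 for all genes tested. Mpv17l2 was the least variable by this measure, at 0.56 times the counting variance. It was chosen for its values in these same mice, and such a choice can favour a low variance within groups. This rank is therefore not read as a trait of the gene.

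Members were weakly and mostly positively correlated between mice. Within groups, over 15 mice, the median Pearson correlation of log2 values was 0.20 over 2926 pairs of members, and 74.1% of pairs were above 0. All points share the scaling of a library and the tissue composition of an ovary. The highest pair was Mrpl20 and Mrpl57 (r = 0.91), followed by Mrpl39 and Mrps21 (r = 0.89). Mrpl20, Mrpl57 and Mrps21 had their lowest value of all 30 libraries in the left ovary of DSS_11.2, the library with the highest Ovgp1. Mrpl39 was at 424 normalized counts there, the lowest of the DSS left ovaries. Correlations without that mouse, and those among other genes, were not computed. Mrps11 and Mrpl46, which lie head to head on chromosome 7, had r = 0.31.

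The comparison of DSS and control mice asks whether a treatment before puberty left a difference in the adult ovary. Mpv17l2 was lower after DSS. In the 7 DSS mice the mean of both ovaries ranged from 39.5 (DSS_11.2) over a median of 43.9 to 50.3 normalized counts (DSS_10.3). In the 8 control mice it ranged from 47.1 (control_15.4) over a median of 57.8 to 58.8 (control_15.3). All 7 DSS mice lay below the control median, and the groups overlapped only through control_15.4, which lay under DSS_10.3.

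Group means of Mpv17l2 were 43.6 ± 3.60 (SD, n = 7) and 56.2 ± 3.96 (SD, n = 8) normalized counts, a log2 difference of -0.36 (SE 0.07, fold 0.78) on the log2(value + 1) scale. In left ovaries the means were 42.2 ± 6.17 after DSS and 58.2 ± 9.08 in controls, and in right ovaries 45.1 ± 5.75 and 54.2 ± 5.52 (SD, n = 7 and n = 8). The difference was therefore -0.45 on the left and -0.26 on the right, and single ovaries of the groups overlapped on both sides. The sides differed in this effect by -0.19 (SE 0.18, limma adjusted p = 0.803). Since the gene was chosen for these values, how the difference behaves when mice are left out carries no support for it. Other contents of the ovaries moved with treatment as well. By mouse, the summed stratified epithelium markers ranged from 83.0 over a median of 171 to 3653 normalized counts in DSS and from 208 over 1085 to 3180 in control mice, with 7 of 7 tested markers lower (median log2 difference -1.81). The RNA tags mt-Rnr1, mt-Rnr2, Gm42418 and Rn7sk were higher in 4 of 4 (median 0.65), summing to 150225 to 307483 in DSS and 100710 to 189369 in control mice. Among them, mt-Rnr1 and mt-Rnr2 are the RNAs of the mitochondrial ribosome itself, and Rn7sk is not a ribosomal RNA. Means per mouse of mt-Rnr2 were 178664 ± 38675 (SD, n = 7) in DSS and 119553 ± 26144 (SD, n = 8) in control mice. For mt-Rnr1 they were 31239 ± 9231 and 18880 ± 5011 normalized counts. T, B and plasma cell markers were higher in 8 of 8 (median 0.56), with sums of 96.0 to 629 and 64.5 to 260. Oviduct markers (8 of 8, median 0.998) and adipose markers (7 of 7, median 1.05) were higher too. So were erythroid markers (5 of 5, median 0.23) and macrophage markers (6 of 8, median 0.18). Granulosa markers were lower in 7 of 10 (median -0.15) and oocyte markers in 7 of 9 (median -0.14). Luteal markers were higher in 4 of 6 (median 0.09) and theca and interstitial markers in 3 of 5 (median 0.02). None of these markers passed the threshold in limma. An unadjusted p under 0.05 in limma was found for 5 epithelial, 3 RNA, 3 lymphoid, 3 macrophage and 1 granulosa marker. Oviduct markers were entered as a covariate in a further fit, where Mpv17l2 differed by -0.34, given as a description only. The Mrp genes in that fit are given below. The part of the other contents in the values of Mpv17l2 and of the Mrp genes was not tested.

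The depth behind Mpv17l2 is small, with 32 to 74 reads per library. The gene lies at chr8:70758349-70760946 on the minus strand as deposited, and its last bases overlap those of Rab3a on the plus strand by 629 bases. With 300 bases taken off the end of each gene, the overlap is 29 bases. Whether the counting used strand is not given, so reads in the overlap may have been counted for either of the 2 genes or dropped. Rab3a, a GTPase of secretory vesicles, had a mean of 63.8 normalized counts in DSS mice (55.2 to 75.1, n = 7) and 66.7 in control mice (57.3 to 90.2, n = 8), and these groups overlapped. The plot by mouse shows the pairs of ovaries.

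**Figure D2:**
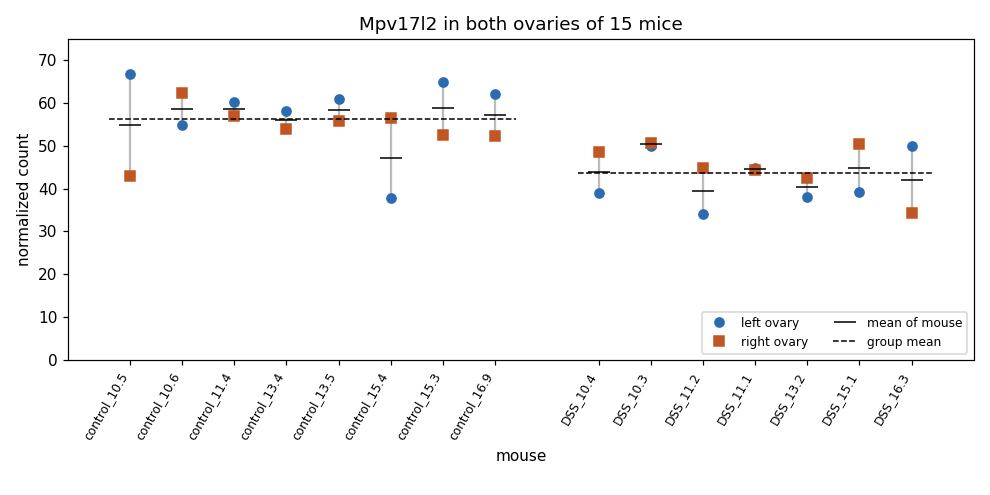
Normalized count of Mpv17l2 in the left ovary (circles) and right ovary (squares) of 8 control and 7 DSS mice, with the mean of each mouse as a short bar and the group mean as a dashed line. The group means are 56.2 and 43.6, and control_15.4 is the control mouse that falls among the DSS mice.

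None of the 76 Mrp genes passed the threshold between DSS and control mice. Across the whole table limma called 0 of 14646 genes (0%) at an adjusted p under 0.05, and 1169 (7.98%) at an unadjusted p under 0.05. Of the 76 Mrp genes, 0 had an unadjusted p under 0.05 by limma and 1 by edgeR and by DESeq2, which called 6 and 52 genes over all and 0 of the 76. The log2 differences ran from -0.15 (Mrps11) to 0.14 (Mrpl47), and 69 of the 76 lay within 0.1 of 0. The 95% intervals had a median half-width of 0.15, and none of them reached below a fold of 0.784 or above 1.31.

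By direction, 46 of the 76 Mrp genes were lower after DSS with a median log2 difference of -0.016, where 49.4% of all genes were lower and their median was 0.002. Small-subunit genes were lower in 18 of 25 (median -0.025) and large-subunit genes in 27 of 50 (median -0.004). This split moved with single mice and settings, in both directions. Without DSS_11.2, 34 of 76 Mrp genes and 13 of 25 small-subunit genes were lower, and without the ovaries over 5000 normalized counts of Ovgp1 33 of 76 were lower, with a median of 0.010. With the oviduct markers as a covariate, 37 of 76 were lower, with a median of 0.002. In the other direction, 57 of 76 were lower without DSS_13.2 (median -0.040), 54 without control_10.5 (median -0.031) and 58 with reads per mouse as a covariate (median -0.041), a covariate added after seeing the data. Genes with a bacterial counterpart were lower in 27 of 45 and mitochondria-specific ones in 18 of 30.

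Among the small-subunit proteins, Mrps16 had the smallest p of the 76. It had 146, 157 and 167 normalized counts as the lowest, median and highest of the DSS mice and 151, 172 and 190 in controls. Each of the 7 DSS mice lay under the median of the controls, the groups overlapped, and the log2 difference was -0.11 (SE 0.06, limma adjusted p = 0.648). Mrps35, a mitochondria-specific protein, differed by -0.12 (SE 0.07), and Mrps11, a protein of the platform, by -0.15 (SE 0.09). Large-subunit genes on the lower side were Mrps30 (-0.14), Mrpl20 (-0.09), Mrpl28 (-0.14), Mrpl41 (-0.10) and Mrpl2 (-0.07), whose protein lies next to the catalytic centre. None of these 8 passed the threshold, with adjusted p from 0.648 to 0.761.

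On the higher side stood mostly large-subunit genes, none past the threshold. Mrpl47, whose protein lies near the exit of the nascent chain, ranged from 293 over 310 to 381 normalized counts in DSS mice and from 245 over 284 to 401 in controls. All 7 DSS mice were above the control median, but control mice reached the highest value, and the log2 difference was 0.14 (SE 0.09, adjusted p = 0.700). The others were Mrps31 (0.11), Mrpl3 (0.08), Mrpl10 (0.07), Mrpl1 (0.07), a protein of the mobile stalk, Mrpl43 (0.07), Mrpl27 (0.06) and Mrpl40 (0.06). Their adjusted p lay between 0.757 and 0.875. In left ovaries alone Mrpl47 (-0.01), Mrpl3 (-0.02) and Mrpl27 (-0.08) had the opposite sign, and in right ovaries alone Mrps30 did (0.0019).

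The members most like Mpv17l2 over the 15 mice were Mrps11 (r = 0.63), Mrps35 (0.54), Mrps16 (0.51), Mrpl20 (0.46) and Mrpl2 (0.46). These correlations include the difference between groups. Within groups only Mrps11 of these kept a similar value (r = 0.62), while Mrps16 had 0.09 and Mrps35 0.25. Over all Mrp genes the values within groups spread to both sides, from 0.62 (Mrps11) and 0.51 (Mrpl48) to -0.48 (Mrps30) and -0.60 (Mrpl38). The variance of Mpv17l2 within groups was 0.56 times what counting reads gives, so these values are not read as shared variation.

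Other genes of mitochondrial gene expression gave no call by limma between DSS and control mice either. Of the 5 mitoribosomal proteins under other names, 4 were higher, and Dap3, a small-subunit GTPase, differed by 0.05. Assembly factors were lower in 15 of 27, with Gtpbp6 at -0.19 and Ddx28 at -0.25. Translation factors were lower in 11 of 14, and mitochondrial aminoacyl-tRNA synthetases in 9 of 17. Tfam packages the mitochondrial genome and helps to start its transcription. It had 57.7 ± 6.19 (SD, n = 7) and 70.2 ± 7.08 (SD, n = 8) normalized counts in DSS and control mice, a log2 difference of -0.28 (SE 0.08, limma adjusted p = 0.380). The relatives of Mpv17l2 had differences above 0, with Mpv17 at 0.13 and Pxmp2 at 0.27. For cytosolic ribosomal proteins 77 of 85 were lower with a median of -0.04, and for nuclear-encoded respiratory chain subunits 58 of 81 with a median of -0.03. Without DSS_11.2 these counts were 63 of 85 and 48 of 81, and 8 of 14 for the translation factors.

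Between the left and right ovary of the same mouse, 13 of the 77 members (7 higher on the left, 6 higher on the right) passed the threshold in limma with the mouse as a block. Of 14646 genes tested, 1488 (10.2%) did, 4.56% higher on the left and 5.6% higher on the right. By level, calls numbered 1 of the 26 lowest members, 6 of the middle 25 and 6 of the highest 26, a difference that was not tested, and among all 8602 genes within the members' range of level 14.1% were called. All sizes were modest, with log2 differences from -0.32 to 0.29.

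**Figure D3:**
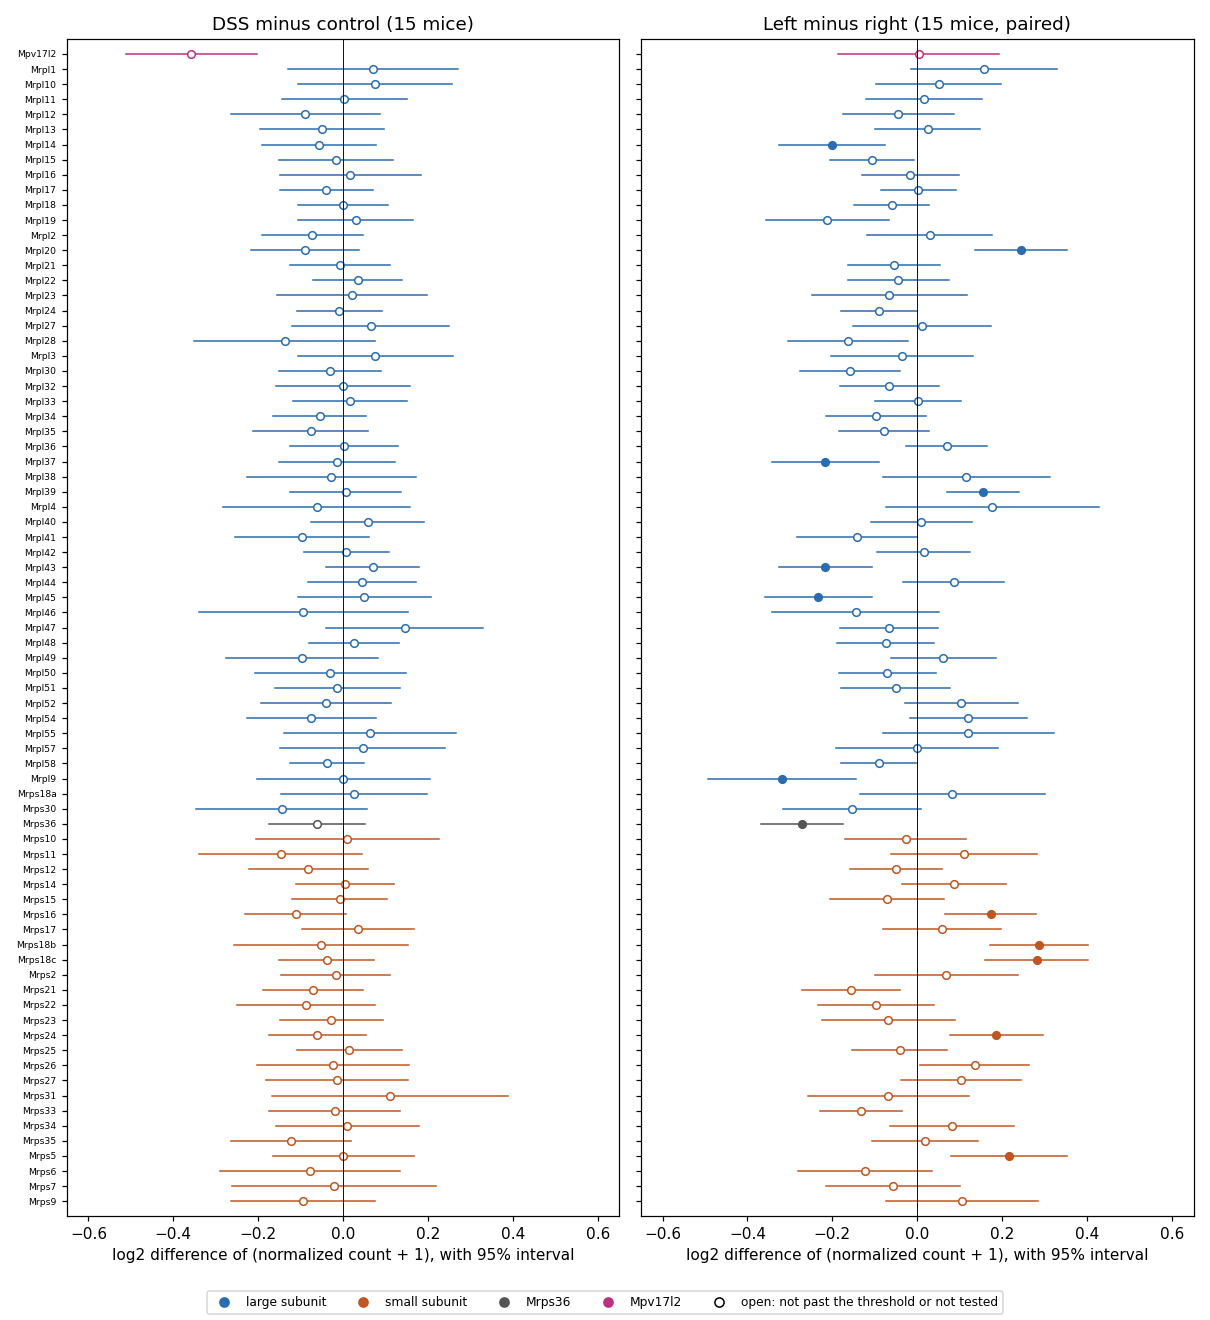
Log2 difference of (normalized count + 1) for each member with its 95% interval from limma, DSS minus control on the left panel and left minus right ovary on the right panel, 15 mice each, coloured by subunit. Filled points passed the threshold, which 0 members did for DSS and 13 did between sides. Mpv17l2 was chosen for its DSS difference and was not tested there.

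The 5 small-subunit members that passed the threshold were all higher on the left, but Mrps21 was called higher on the right when control_10.5 or control_13.5 was left out. Mrps18b, a mitochondria-specific relative of the bacterial S18 protein, had a lowest, median and highest value of 105, 140 and 180 normalized counts in left and 89.95, 110 and 131 in right ovaries. The left ovary was higher in 15 of 15 mice although the ranges overlapped, and the log2 difference was 0.29 (SE 0.06, adjusted p = 0.0022). Mrps18c, the S18 protein at the bacterial place, ranged from 565 over 697 to 812 on the left and from 417 over 556 to 680 on the right. It was higher on the left in 14 of 15 mice (log2 difference 0.28, SE 0.06, adjusted p = 0.0040). The third relative, Mrps18a of the large subunit, did not pass the threshold.

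Mrps5 and Mrps24, proteins at the entry of the messenger RNA, differed by 0.21 (SE 0.07, adjusted p = 0.0403, 11 of 15 mice) and 0.19 (SE 0.05, adjusted p = 0.0275, 13 of 15 mice). Mrps16 differed by 0.17 (SE 0.05, adjusted p = 0.0365, 13 of 15 mice). The calls of Mrps5 and Mrps16 were the least stable, lost in 11 and 9 of the 15 fits that left out 1 mouse and in 7 and 8 of 15 other alternatives, with the sign kept. Each of the 3 overlapped between sides, with 150 to 307 normalized counts on the left and 169 to 225 on the right for Mrps5.

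Large-subunit members went both ways. Higher on the left were Mrpl20, which binds the large ribosomal RNA, and the mitochondria-specific Mrpl39. Mrpl20 had 251, 368 and 408 normalized counts as the lowest, median and highest of left ovaries and 253, 297 and 354 of right ovaries. It was higher on the left in 14 of 15 mice (0.24, SE 0.05, adjusted p = 0.0047), the exception being DSS_11.2. Mrpl39 differed by 0.15 (SE 0.04, adjusted p = 0.0189, 13 of 15 mice).

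Higher on the right were 5 large-subunit members. Mrpl9 had 31.5, 53.0 and 71.9 normalized counts on the left and 57.0, 67.5 and 72.6 on the right, and was higher on the right in 14 of 15 mice (log2 difference -0.32, SE 0.08, adjusted p = 0.0179). Mrpl43, a mitochondria-specific protein whose promoter is printed above, had 211, 258 and 289 on the left and 248, 297 and 345 on the right (-0.22, SE 0.05, adjusted p = 0.0116, 13 of 15 mice). Mrpl45, near the exit of the nascent chain at the inner membrane, differed by -0.23 (adjusted p = 0.0163, 14 of 15 mice). Mrpl37 differed by -0.22 (adjusted p = 0.0255, 12 of 15 mice) and Mrpl14, at the contact with the small subunit, by -0.20 (adjusted p = 0.0361, 13 of 15 mice). The call of Mrpl14 was lost in 5 of the 15 fits that left out 1 mouse and in 7 of 15 other alternatives, with the sign kept.

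Mrps36, which is no subunit of the ribosome, had the smallest p of all members. Its values were 468, 589 and 685 normalized counts on the left and 605, 712 and 827 on the right. The right ovary was higher in 14 of 15 mice, and the log2 difference was -0.27 (SE 0.05, adjusted p = 0.00079). Mpv17l2 did not differ detectably between sides, with 34.1, 49.98 and 66.7 normalized counts as the lowest, median and highest on the left, 34.2, 50.7 and 62.3 on the right (n = 15 each) and a log2 difference of 0.00 (95% interval -0.19 to 0.19, adjusted p = 0.99).

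**Figure D4:**
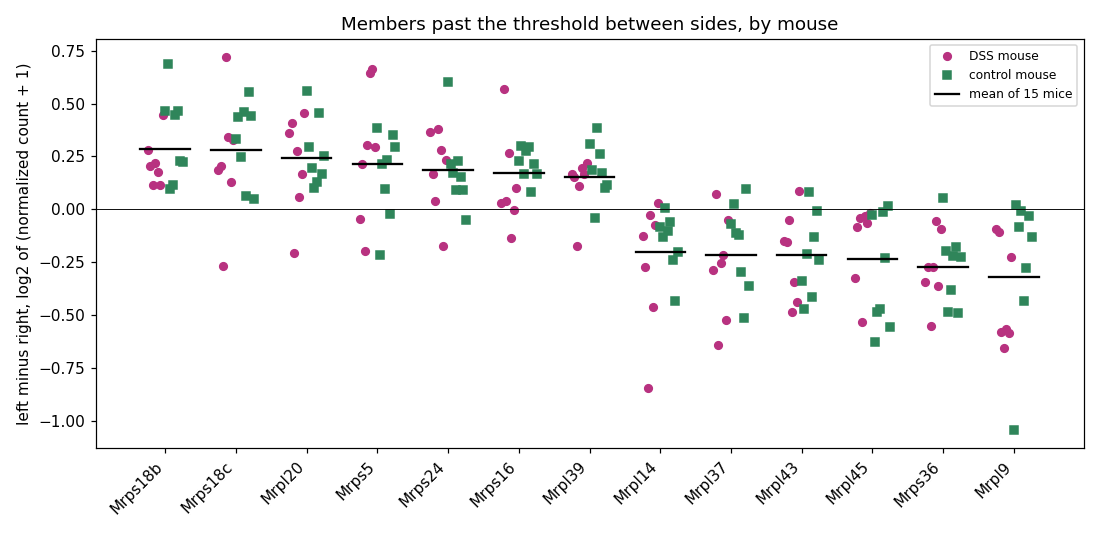
Left minus right log2 of (normalized count + 1) in each of 15 mice for the 13 members past the threshold, with DSS mice as circles, control mice as squares and the mean of 15 mice as a black line. Mrps18b lies above 0 in 15 of 15 mice, and Mrps36 and Mrpl9 lie below 0 in 14 of 15.

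Several measured features of the libraries moved with side. Stratified epithelium markers were higher on the left in 15 of 15 mice, with all 7 tested markers called, and macrophage markers in 13 of 15, with 4 of 8 called. Adipose markers were higher on the left in 7 of 7 (median log2 difference 0.54, 0 called by limma and 0 at an unadjusted p under 0.05). Erythroid markers were lower on the left in 5 of 5 (median -0.54, 1 called). Theca and interstitial markers were lower on the left in 4 of 5 (median -0.17), with 1 called in each direction. Luteal markers were lower in 5 of 6 (median -0.12) and oviduct markers in 6 of 8 (median -0.24), with 0 called. Granulosa markers were lower in 5 of 10 (median 0.01) and oocyte markers in 5 of 9 (median -0.06), also with 0 called. With the stratified epithelium level as a covariate, an alternative chosen after seeing the data, 0 of 77 members and 12 genes in all passed the threshold in limma, with 8 members at an unadjusted p under 0.05. All 13 differences kept their sign there, with sizes from 0.12 to 0.42, while their median SE rose from 0.06 to 0.13. In DSS mice alone 0 of 77 passed in limma (17 at an unadjusted p under 0.05), in control mice alone 4 did, and without the 6 mice with an ovary over 5000 normalized counts of Ovgp1 4 did. The 4 were Mrps18b, Mrps18c, Mrpl20 and Mrps36 in both cases, and all 13 kept their sign in each of these subsets. The part of these tissues in the differences between sides was not tested further.

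Because small-subunit calls were higher on the left and most large-subunit calls higher on the right, the summed level of large-subunit genes over that of small-subunit genes is given as a description. The ratio lay between 2.07 and 2.44 over libraries. It was 2.15 ± 0.07 (SD, n = 15) in left and 2.26 ± 0.06 (SD, n = 15) in right ovaries, with a median difference of 0.11 within mice. The right ovary was higher in 14 of 15 mice, DSS_10.4 being the exception. Mean sums were 12187 on the left and 12516 on the right for the large subunit. For the small subunit they were 5662 and 5531 normalized counts, a difference close in size to that of the called gene Mrps18c alone. Over all members of a subunit, 11 of 25 small-subunit and 29 of 50 large-subunit genes were lower on the left, so the shift was not shared by every gene of a subunit. The small-subunit proteins under other names, Dap3 (-0.26), Aurkaip1 (-0.18), Ptcd3 (-0.14) and Chchd1 (-0.07), were all lower on the left, against the small-subunit calls. With these 4 and the large-subunit Gadd45gip1 in the sums, a choice made after seeing the data, the ratio was 1.97 ± 0.05 on the left and 2.04 ± 0.04 on the right (SD, n = 15), higher on the right in 14 of 15 mice by a median of 0.09. By mouse the ratio was 2.23 ± 0.06 (SD, n = 7) in DSS and 2.19 ± 0.04 (SD, n = 8) in control mice, and these overlapped.

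**Figure D5:**
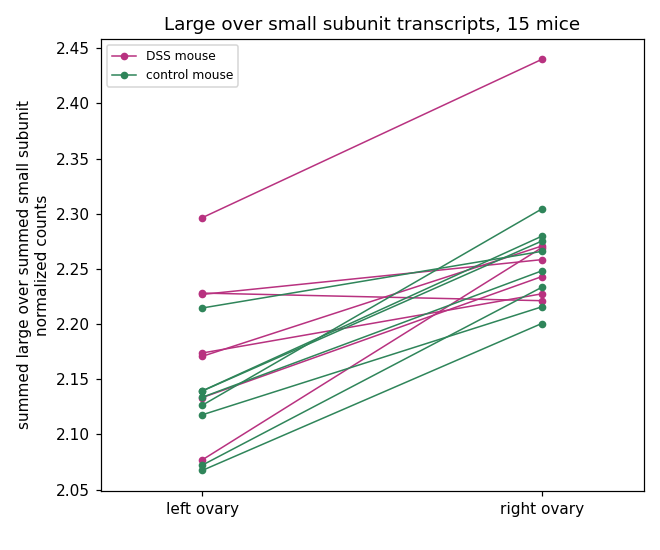
Summed normalized counts of large-subunit genes over those of small-subunit genes in the left and right ovary, with a line for each of 15 mice (axis from 2.05). The line rises to the right ovary in 14 mice, and the right ovary of DSS_11.1 is highest at 2.44.

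Calls among other genes of the same pathway are read beside 10.2% of all genes tested, or 14.1% within the members' range of level, and no difference of these shares was tested. Dap3 was lower on the left (179 ± 11.3 and 215 ± 22.6 normalized counts, SD, n = 15, log2 difference -0.26, limma adjusted p = 0.0045), the only call among the 5 mitoribosomal proteins under other names, all 5 of which had values below 0. Assembly factors gave 2 calls of 27, Noa1 at -0.31 and Ndufab1 at 0.19. Translation factors gave 3 of 14, the elongation factor Gfm1 (-0.35), Lrpprc (-0.22), which stabilises mitochondrial messenger RNA, and Guf1 (0.19). The synthetases gave 1 of 17, Hars2 at -0.20. Among genome maintenance and transcription genes Tfb2m (0.21) and Polg (0.29) were called of 9. Cytosolic ribosomal proteins were called in 29 of 85 and respiratory chain subunits in 27 of 81.

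No member showed a detectable difference between sides in its response to DSS. Limma called 0 of 77 members and 0 of 14646 genes (0%), with 4 members and 1248 genes (8.52%) at an unadjusted p under 0.05. Mrpl47 had the smallest p, with a DSS effect on the left minus that on the right of -0.31 (log2, SE 0.09, adjusted p = 0.533). Mrpl54 had 0.31 (SE 0.12, adjusted p = 0.542) and Mrps30 -0.30 (SE 0.14, adjusted p = 0.581). Tissue markers differed in the same measure, with none called. Oviduct markers were above 0 in 8 of 8 (median 2.67, 7 at an unadjusted p under 0.05 in limma). Granulosa markers were below 0 in 10 of 10 (median -0.63, 5 at that p) and oocyte markers in 8 of 9 (median -0.30). The part of these contents in the side-specific values of Mpv17l2 and of the Mrp genes was not tested.

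The annotation limits some of these values. As deposited, 42 of the 77 members overlap another gene, 35 of them on the other strand, and 19 have another gene over their last 300 bases, where tags are expected. Between sides, 6 of these 42 and 7 of the 35 without an overlap were called. Of the called members, Mrps18b overlaps Gm16279 at its end, and Mrps18c (Gm43511), Mrps24 (Urgcp), Mrpl9 (Oaz3), Mrpl14 (Tmem63b) and Mrpl45 (Gm11594) overlap elsewhere, so their values are uncertain to that extent. Mrps36, Mrpl20, Mrpl43, Mrpl39, Mrpl37, Mrps16 and Mrps5 have no overlap. For some members the deposited 3′ end falls short of that of GENCODE M21. Relative to the M21 end it lies at -1627 bases for Mrps16, -1429 for Mrps30, -1817 for Mrpl32 and -251 for Mrpl57. Tags beyond the deposited end may not have been counted, so the values of these genes are uncertain too.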

How the data were processed

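Gene expression was measured in 30 ovary libraries of 15 mice. The authors deposited normalized counts per gene, a signal with no value below 0. Per the file headers the table covers 50600 genes. TopHat, HTSeq and DESeq2 with the build GRCm38.p5 are named per the submitters' processing notes. Versions, strand setting and the handling of molecular identifiers are not given in the sources used here. Per the labels' protocols, 3 CEL-Seq primers were pooled per sample. In each library 1 step underlay the values, and division by that step gave back whole reads for 99.88% to 100% of the genes detected (tolerance 0.0051 normalized counts).

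For DSS against control, the mean of a mouse's 2 ovaries was taken as log2(mean + 1). It was tested two-sided with limma 3.58.1 (R 4.3.3, with trend) over the 14646 genes that reached a mean of 5. p-values were adjusted by Benjamini-Hochberg over all of these, with a threshold of 0.05. Fold changes on this scale understate changes of low genes. Sides were compared on log2(value + 1) of single libraries, blocked by mouse, since the mouse number in the titles ties both ovaries to 1 animal. Whether the DSS effect differed by side was tested on each animal's left minus right log2 value. Depth sets the precision: counting reads alone gives Mpv17l2 an SD of 5.07 normalized counts per mouse. edgeR 4.0.16 and DESeq2 1.42.0 on the recovered reads, other pseudocounts, filters and scalings, subsets of ovaries and mice, covariates and leaving out each mouse were alternatives. The fits were tested on simulated data.

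Named members were Mpv17l2, the 8 of lowest p per direction for DSS, up to 8 called in each direction between sides, the 3 with the smallest p for the difference between sides, the 5 highest and 5 lowest by level, Mrps18a, Mrps30, Mrpl12, Mrpl58 and Mrps36 for their roles, the 5 most like Mpv17l2, and from each list of other genes those with the smallest p. The genes Mrps21, Mrpl57, Mrpl32 and those of the printed overlaps were chosen after their values were seen. The members, lists and rules were chosen with earlier results of these data known. Kinases named Rps6k were kept out of the cytosolic ribosomal proteins, and 5 processed pseudogenes with matching names were not used. Gene positions are as deposited. For 67 members the deposited 3′ end lies 300 bases past that of GENCODE M21. Promoters are RefSeq's.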

Additional observations from a re-analysis of the deposited data

Results flagged for a closer look

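In 6 of 68 groups of 7 or 8 ovaries checked, 1 ovary stood apart from the other ovaries of its side and treatment by more than Dixon's 95% limit, which chance alone gives in about 1 in 20 groups. Of these, 4 were the left ovary of DSS_11.2, the library with 66716 normalized counts of Ovgp1. Its summed members came to 15058 normalized counts, where the next lowest DSS left ovary had 18015. Its members made up 0.353% of the library, where the next had 0.414%. Mrpl20 stood at 251 there, with the next at 345, and Mrpl39 at 424, with the next at 527 normalized counts.

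The large over small subunit ratio of the right ovary of DSS_11.1 was 2.44, above 2.27 in the next DSS right ovary. Both ovaries of that mouse exceeded 5000 normalized counts of Ovgp1. Mpv17l2 in the left ovary of control_15.4 was 37.7 normalized counts, with the next control left ovary at 54.9. The right ovary of that mouse had 56.4. The causes were not tested.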

How the results depend on the processing

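No Mrp gene passed the threshold between DSS and control mice under any of the 30 alternatives. Genes called over the whole table went from 0 in limma to 6 (edgeR), 52 (DESeq2), 11 (left ovaries only), 1 (right ovaries only), 3 (first part of the mouse number as a term) and 10 (without ovaries over 5000 normalized counts of Ovgp1), and to between 0 and 13 without 1 mouse each, 13 without DSS_15.1. Signs turned for Mrps30 in right ovaries only (0.0019) and in left ovaries only for Mrpl47 (-0.015), Mrpl3 (-0.025) and Mrpl27 (-0.081). Between sides, the paired fit called 13 members and 1488 genes, and without the replicate block 12 members and 1163 genes. Members and genes called were 0 and 115 in DSS mice only, 4 and 384 in control mice only, 4 and 733 without mice with an ovary over 5000 of Ovgp1, and 0 and 12 with stratified epithelium markers as a covariate. Without 1 mouse each, 10 to 13 members were called. Mpv17l2 between sides lay near 0 and changed sign to -0.0072 (TMM scaling), -0.021 (quantile normalization), -0.098 (DSS mice only), -0.028 (without mice with an ovary over 5000 of Ovgp1), -0.43 (stratified epithelium covariate), -0.012 (reads covariate) and, without 1 mouse (DSS_16.3, control_10.5, control_11.4, control_13.4, control_13.5, control_15.3 and control_16.9, in this order), -0.035, -0.041, -0.0024, -0.0048, -0.0057, -0.018 and -0.014. For the difference between sides, quantile normalization called 1 gene and leaving out 1 mouse 0 to 2 (2 without DSS_11.2), none of them a member. Covariates of stratified epithelium and of reads were added after seeing the data. The cause of these changes was not tested. With 32 to 74 reads per library, depth limits Mpv17l2.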
